A study of Mus musculus with 384 samples.

Results

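Transcripts of 7 genes of the 2 trophic-factor systems best known in midbrain dopamine (DA) neurons were followed across single neurons: *Gdnf*, the ligand GDNF; *Ret*, its signalling receptor; *Gfra1* and *Gfra2*, the co-receptors that present ligand to RET; *Bdnf*, a neurotrophin; and *Ntrk2* and *Ntrk3*, which encode the neurotrophin receptors TrkB and TrkC. They were taken by symbol, and all 7 of 7 were present among 41267 gene rows with values. Levels were read in 209 of 384 cells, those with at least 500000 reads counted on genes. The cells came from 8 DATIRESCre;Ai9 mice of strain C57BL6/J, 5 labelled male and 3 labelled female and 24 to 36 d old, and none was treated. In these mice Cre is knocked in at the dopamine transporter gene *Slc6a3*, and it switches on the tdTomato reporter of the Ai9 allele in every cell in which that gene has been active, so a red cell need not still be a DA neuron. The dissected piece held the midbrain and the hypothalamus. Each mouse was captured on its own microfluidic chip, so mouse and chip cannot be told apart, and 1 of the 2 capture machines ran males alone. Sexes follow the sample labels, from which the counts in the series text differ.

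GDNF family ligands bind a GFRα co-receptor tethered to the membrane, and the pair then brings together and activates RET, a receptor tyrosine kinase. GDNF prefers GFRα1, the product of *Gfra1*, and neurturin prefers GFRα2, the product of *Gfra2*. RET signalling is known to support adult nigrostriatal DA neurons, and GDNF and neurturin have both been tried against their loss. BDNF acts on TrkB and neurotrophin-3 on TrkC, through adaptor, MAP kinase, and phosphoinositide 3-kinase pathways that RET also uses. *Ntrk2* and *Ntrk3* each give full-length receptors and truncated receptors without a kinase domain, and a read count per gene cannot separate them. Truncated TrkB is the common form in astrocytes.

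Retained cells held 500672 to 1544824 reads (median 780484), and mice gave 12 to 45 cells each. The labelled cell type was borne out by most but not all of its markers. *Th*, the rate-limiting enzyme of DA synthesis, reached 10 reads in 94.7% of cells and *Slc6a3* in 98.1%, while *Foxa2* did so in 36.8% and *Pitx3* in 15.3%. Of the 209 cells, 178 were *Th*-rich, defined as at least 1000 reads per 1000000 counted gene reads (CPM) of *Th* and 100 CPM of *Slc6a3*, and the remaining 31 came from all 8 mice. The summed level of 6 astrocyte markers was 0 to 48.1 CPM in mice 2 to 8 and 569 CPM in mouse 1. The summed level of 11 stress and activity genes ranged from 147 CPM in mouse 3 to 3372 CPM in mouse 1. *Hspa1a* and *Hspa1b* of that list were at 0 in every cell.

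In the mouse assembly GRCm38, *Ret* lies on chromosome 6 (118151748 to 118197744, minus strand), and *Gfra1* on chromosome 19 (58235581 to 58455946, minus strand). *Gfra2* lies on chromosome 14 (70890107 to 70979840), *Ntrk2* on chromosome 13 (58806472 to 59133970), and *Ntrk3* on chromosome 7 (78179986 to 78581034, minus strand). *Bdnf* lies on chromosome 2 (109674700 to 109727043) and *Gdnf* on chromosome 15 (7810048 to 7837580). In RefSeq, *Gfra1* shares its span with 2 other genes (Gm46650 and Gm10007), and *Gfra2*, *Ntrk2*, and *Ntrk3* with 1 each (Gm34588, Gm53063, and Gm39038). The library kit does not keep the strand, and the authors left out reads that fell on several genes. Reads of such a pair of genes may therefore have been dropped where their exons meet.

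*Ret* was the highest of the 7 genes per kb of exon, and *Gdnf* was near 0. Levels per kb were reads per kb of merged exon per 1000000 counted gene reads (RPKM) in the summed cells of each mouse. *Ret* stood at 92.5 ± 19.5 RPKM (SD, n = 8 mice), with mice between 68.7 and 131 RPKM. *Gfra1* stood at 51.1 ± 15.0 RPKM (SD, n = 8), with mice between 29.4 and 73.9 RPKM. Both receptor genes were thus found at high level in every mouse, and *Ret* was above *Gfra1* in 8 of 8.

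*Bdnf* stood at 14.7 ± 3.65 RPKM (SD, n = 8), between 9.30 and 18.9 RPKM. *Ntrk2* stood at 14.6 ± 10.0 RPKM (SD, n = 8), between 6.31 and 38.9 RPKM, with mouse 1 alone far above the rest. *Gfra2* stood at 8.05 ± 4.38 RPKM (SD, n = 8), between 3.77 and 16.9 RPKM. The TrkC gene *Ntrk3*, which has the longest merged exons of the set (30170 bases), stood at 3.94 ± 1.12 RPKM (SD, n = 8), between 2.30 and 6.01 RPKM.

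Neighbours in that order were compared as differences of log2(RPKM + 0.1) by a two-sided test that flips signs by mouse (exact permutation), with Benjamini-Hochberg adjustment over 6 pairs, in which 8 mice can give a p of 0.00781 at the smallest. *Ret* exceeded *Gfra1* by 0.88 ± 0.46 log2 units (SD, n = 8 mice; exact permutation p = 0.00781, adjusted p = 0.0156), and *Gfra1* exceeded *Bdnf* by 1.78 ± 0.78 (SD, n = 8 mice; exact permutation p = 0.00781, adjusted p = 0.0156). Over all retained cells *Bdnf* and *Ntrk2* did not differ beyond the spread between mice, at 0.16 ± 0.88 (SD, n = 8 mice; exact permutation adjusted p = 0.617). *Ntrk2* exceeded *Gfra2* by 0.83 ± 0.79 and *Gfra2* exceeded *Ntrk3* by 0.90 ± 0.87 (SD, n = 8 mice; exact permutation adjusted p = 0.0469 for each). Without mouse 1, 2, 3, 5, or 7 neither of these last 2 pairs passed (3 of 6 pairs past 0.05), and in *Th*-rich cells alone *Ntrk2* exceeded *Gfra2* by 0.83 (exact permutation adjusted p = 0.0563) and *Gfra2* exceeded *Ntrk3* by 0.62 (adjusted p = 0.203). In the same *Th*-rich cells *Bdnf* exceeded *Ntrk2* by 0.48 (exact permutation adjusted p = 0.0469). With cells of 100000 reads or more, *Gfra2* exceeded *Ntrk3* by 0.76 (exact permutation adjusted p = 0.0844). With the longest transcript as the length, *Ntrk2* exceeded *Gfra2* by 1.93 (exact permutation adjusted p = 0.0117), *Gfra2* exceeded *Ntrk3* by 0.33 (adjusted p = 0.320), and the order of *Bdnf* and *Ntrk2* turned (−0.44). The order below *Ret* rests on the division by length. Before it, *Ntrk2* stood at 282 CPM, *Gfra1* at 280, *Ntrk3* at 119, *Bdnf* at 91.4, and *Gfra2* at 28.5 CPM (means of mice). Coverage was uneven along transcripts (median ratio of 5′ to 3′ coverage 0.338), and its part in levels per kb was not tested.

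**Figure D1:**
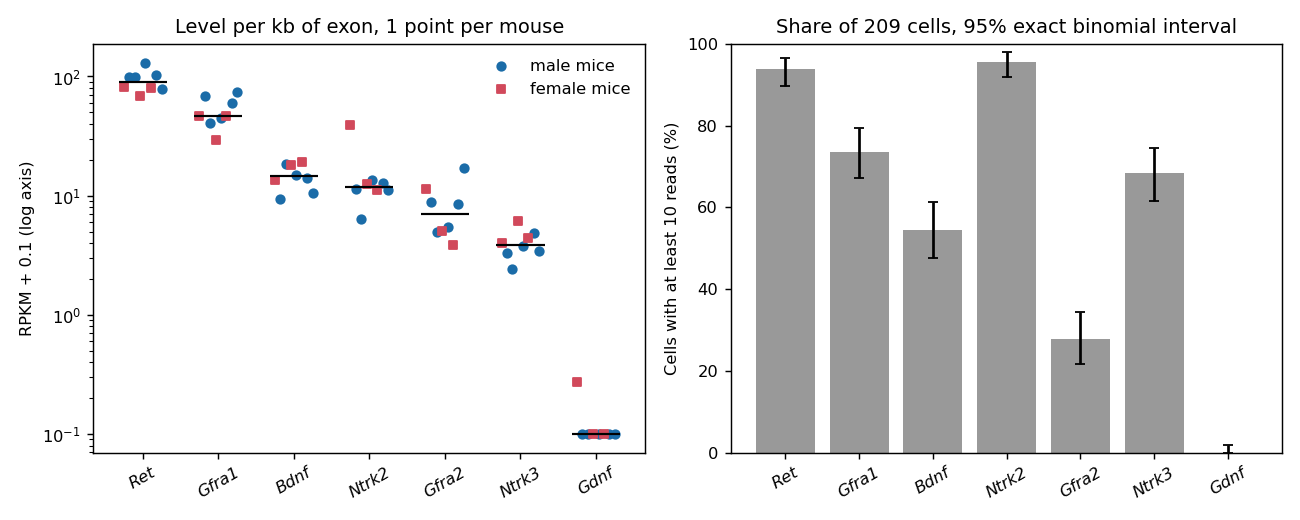
Left, level of each gene per kb of exon in the summed cells of each of 8 mice, as RPKM + 0.1 on a log axis, with circles for male mice, squares for female mice, and a line at the median. Right, share of 209 cells with at least 10 reads of each gene, with 95% exact binomial intervals. Ret and Gfra1 lead per kb, Ntrk2 is found in as many cells as Ret at a lower level, with mouse 1 apart, and Gdnf sits at the floor in 7 of 8 mice.

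Presence in single cells was scored at 10 reads or more, here termed positive. *Ret* was positive in 196 of 209 cells (93.8%, exact 95% interval 89.6 to 96.6%) and *Ntrk2* in 200 (95.7%, 92.0 to 98.0%). *Gfra1* was positive in 154 cells (73.7%, 67.2 to 79.5%), *Ntrk3* in 143 (68.4%, 61.7 to 74.7%), and *Bdnf* in 114 (54.5%, 47.5 to 61.4%). *Gfra2* was positive in 58 cells (27.8%, 21.8 to 34.3%). Intervals over cells cover counting error only and take no account of cells sharing a mouse, and reads were amplified without molecular identifiers.

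The genes differed in how evenly they were spread over cells. The median cell held 598 CPM of *Ret* (quartiles 390 and 892 CPM) and 171 CPM of *Ntrk2* (quartiles 92.5 and 281 CPM). *Gfra1* had a median of 232 CPM but a lower quartile of 9.44 CPM, and *Bdnf* a median of 22.4 CPM with a lower quartile of 0 and an upper quartile of 117 CPM. For *Gfra2* the median cell held 1.22 CPM, and the 5 highest cells carried 27.8% of the summed CPM. *Ret* and *Ntrk2* were therefore found in nearly every cell, *Gfra1*, *Ntrk3*, and *Bdnf* in most at widely differing levels, and *Gfra2* in a minority.

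The level of *Ntrk2* in mouse 1, 751 CPM against 122 to 258 CPM in the other mice, came with glial markers. Its 3 highest cells, all of mouse 1, held 4289, 3534, and 1917 CPM of *Ntrk2* and 2362, 1986, and 1860 CPM of *Slc1a3*, the astrocyte glutamate transporter. Their *Th* levels were 3.38, 1.47, and 355 CPM. These cells carried 62.7% of the *Ntrk2* reads of mouse 1, and without them its level was 327 CPM. Among *Th*-rich cells alone, *Ntrk2* stood at 274 CPM in mouse 1 and between 120 and 247 CPM in the other 7 mice.

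*Gdnf* had 8 reads in all, in 1 cell of mouse 1. No cell reached the 10 reads that count as positive (0 of 209 cells, which allows a share of up to 1.44% by the limit of 3 counts, or 1.75% by the exact 95% interval). The other ligands of the GDNF family were also scarce. *Nrtn*, which encodes neurturin, had 3 reads over all retained cells and was positive in 0, *Pspn* had 34 reads and was positive in 1, and *Artn* had 85 reads and was positive in 2. Of the neurotrophin genes, *Ntf5* was positive in 0 cells. *Ntf3*, the gene of the TrkC ligand neurotrophin-3, was positive in 86 cells (41.1%) at 39.2 ± 10.3 CPM (SD, n = 8 mice).

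Co-detection of *Ret* with its co-receptors was described cell by cell. Of 209 cells, 118 were positive for *Ret* and *Gfra1* but not *Gfra2*, 35 for all 3 genes, and 19 for *Ret* and *Gfra2* alone. Another 24 were positive for *Ret* with neither co-receptor. Of the 13 *Ret*-negative cells, 9 had no co-receptor gene, 3 had *Gfra2*, and 1 had both *Gfra1* and *Gfra2*. *Gfra1* was thus positive in 153 of 196 *Ret*-positive cells (78.1%, exact 95% interval 71.6 to 83.6%) and in 1 of 13 *Ret*-negative cells (7.69%, 0.195 to 36.0%). *Gfra2* was positive in 54 of 196 *Ret*-positive (27.6%, 21.4 to 34.4%) and 4 of 13 *Ret*-negative cells (30.8%, 9.09 to 61.4%).

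In cells of 500000 reads or more these shares could not be tested over mice, because mouse 1 alone held 3 or more *Ret*-negative cells. With cells of 100000 reads or more 5 mice could be used, in which the smallest p possible is 0.0625, and *Gfra1* was positive in a share 53.5 percentage points higher in *Ret*-positive cells (exact permutation adjusted p = 0.104) and *Gfra2* in a share 7.32 points higher (adjusted p = 0.469). In mouse 1, *Gfra1* was positive in 8 of 12 *Ret*-positive and 0 of 6 *Ret*-negative cells, and *Gfra2* in 4 of 12 and 3 of 6. Of the 13 *Ret*-negative cells, 8 were not *Th*-rich. Among *Th*-rich cells, *Ret* was positive in 173 of 178 and *Gfra1* in 146 of 178 (82.0%), against 23 and 8 of the 31 other cells. *Gfra2* differed less between these cells, at 27.0% of *Th*-rich and 32.3% of other cells.

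Whether the 2 co-receptor genes share cells was asked next. *Gfra2* was positive in 36 of 154 *Gfra1*-positive cells (23.4%, exact 95% interval 16.9 to 30.9%) and in 22 of 55 *Gfra1*-negative cells (40.0%, 27.0 to 54.1%). By mouse the share was lower by 16.7 percentage points in *Gfra1*-positive cells, with a spread of 31.6 points (SD, n = 7 mice with 3 or more cells of each kind). The difference ran from 70.0 points lower in mouse 1 to 15.5 points higher in mouse 2, and it was above 0 in 3 of 7 mice (two-sided exact sign-flip permutation p = 0.234, and the smallest p possible is 0.0156). Without mouse 1 the share was lower by a mean of 7.81 points (exact permutation adjusted p = 0.469). The difference between the pooled shares therefore did not hold up against the spread between mice.

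**Figure D2:**
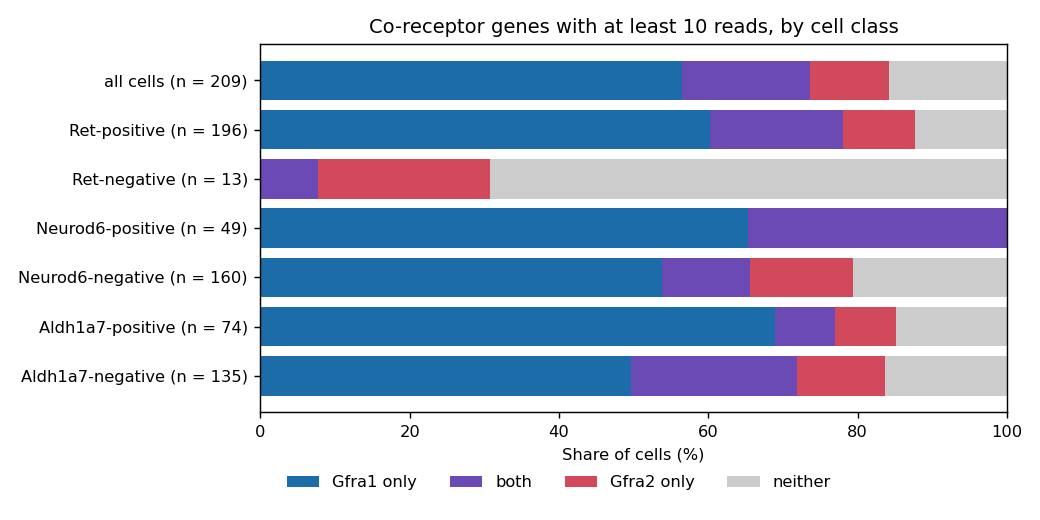
Share of cells, in percent, positive (10 or more reads) for Gfra1 only, both co-receptor genes, Gfra2 only, or neither, for all cells and by Ret, Neurod6, and Aldh1a7 status, with the number of cells beside each bar. Every one of the 49 Neurod6-positive cells carries Gfra1, and the 13 Ret-negative cells mostly carry neither.

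On the neurotrophin side, 79 of 209 cells (37.8%) were positive for *Ntrk2*, *Ntrk3*, and *Bdnf* at once. A further 59 held both receptor genes without *Bdnf*, and 31 held *Ntrk2* and *Bdnf* without *Ntrk3*. *Bdnf* was positive in 110 of 200 *Ntrk2*-positive cells (55.0%, exact 95% interval 47.8 to 62.0%) and in 4 of 9 *Ntrk2*-negative cells (44.4%, 13.7 to 78.8%). *Bdnf* was positive in 82 of 143 *Ntrk3*-positive cells (57.3%, 48.8 to 65.6%) and 32 of 66 *Ntrk3*-negative cells (48.5%, 36.0 to 61.1%).

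The first class comparison asked how the genes differ in cells with *Neurod6*, a basic helix-loop-helix transcription factor that marks a subset of ventral tegmental area neurons. Reads were summed over the 10-read positive and the other cells of each mouse, in the 6 mice that had 3 or more of both kinds (47 of 49 *Neurod6*-positive cells), and fitted with edgeR's quasi-likelihood test over 12606 genes, Benjamini-Hochberg adjusted. A level of such a sum rises both with the share of cells that hold a gene and with the level per cell. *Neurod6* itself was used to split the cells, so its difference is no result.

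*Gfra1* was higher in *Neurod6*-positive cells in 6 of 6 mice. Its level there was 287 CPM at the lowest (mouse 3), 532 CPM at the median, and 773 CPM at the highest (mouse 5), and in the other cells 114, 190, and 315 CPM. The groups overlapped by 1 mouse: the positive cells of mouse 3 lay below the other cells of mouse 2. The log2 fold change was 1.57 ± 0.27 (SE; edgeR adjusted p = 0.0638), short of the threshold of 0.05, and DESeq2 on the same sums gave 1.60 (adjusted p = 3.73e-05). With the mouse as a block the change was 1.59 (edgeR adjusted p = 0.198), and in *Th*-rich cells alone it was 1.20 (edgeR adjusted p = 0.303). By cell, all 49 *Neurod6*-positive cells were positive for *Gfra1* (exact 95% interval 92.7 to 100%), against 105 of 160 others (65.6%, 57.7 to 72.9%) and 97 of the 129 others that were *Th*-rich (75.2%, 66.8 to 82.4%).

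*Bdnf* was lower in *Neurod6*-positive cells in 5 of 6 mice. Its level there was 0 CPM in mouse 1, 9.73 CPM at the median, and 118 CPM in mouse 3, and in the other cells 80.5, 110, and 142 CPM at the lowest, median, and highest. Mouse 3 aside, the positive cells of each mouse lay under 20 CPM. Mouse 3 was set aside only after its value was seen. The log2 fold change was −1.94 ± 0.88 (SE; edgeR adjusted p = 0.801), without mouse 3 it was −3.60 (edgeR adjusted p = 0.120), and with the mouse as a block it was −3.51 (edgeR adjusted p = 0.323). *Bdnf* was positive in 15 of 49 *Neurod6*-positive cells (30.6%, exact 95% interval 18.3 to 45.4%) and in 99 of 160 others (61.9%, 53.9 to 69.4%). *Bdnf* is also an activity-induced gene, and the 11 stress and activity genes summed to 75.4 to 612 CPM in *Neurod6*-positive cells and 161 to 3979 CPM in the others, lower in the positive cells in 5 of 6 mice. The exception was mouse 5, not mouse 3. The 6 oligodendrocyte genes summed to 18.6 to 131 CPM in positive and 19.4 to 2591 CPM in other cells, with *Mog* at 0 in all. In *Th*-rich cells alone the log2 fold change of *Bdnf* was −2.15, and the part of the activity genes in it was not tested.

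*Ret* had the smallest difference by *Neurod6* status. It stood at 304, 781, 739, 816, 673, and 533 CPM in the positive cells of mice 1, 2, 3, 5, 7, and 8, and at 537, 634, and 898 CPM (lowest, median, and highest) in the others, higher in positive cells in 2 of 6 mice. The log2 fold change was 0.00 ± 0.22 (SE; edgeR adjusted p = 1.00), with an approximate 95% interval of −0.44 to 0.44. *Gfra2* ran from 0.435 CPM in mouse 1 to 101 CPM in mouse 8 in positive cells, against 12.0 to 49.8 CPM in the others, so mice disagreed in direction (3 of 6 higher). Its log2 fold change was 0.27 ± 0.81 (SE; edgeR adjusted p = 0.998).

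The neurotrophin receptor genes did not pass either. *Ntrk3* stood at 33.5, 109, and 215 CPM in positive and 57.1, 110, and 168 CPM in other cells, with a log2 fold change of 0.18 ± 0.37 (SE; edgeR adjusted p = 0.998). *Ntrk2* stood at 88.3, 212, and 268 CPM in positive and 129, 242, and 863 CPM in other cells, with a log2 fold change of −0.62 ± 0.38 (SE; edgeR adjusted p = 0.923). The value of 863 CPM belongs to mouse 1, whose other cells held 692 CPM of astrocyte markers against 12.6 CPM in its *Neurod6*-positive cells. In *Th*-rich cells the log2 fold change of *Ntrk2* was −0.14, and without mouse 1 it was −0.12.

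In all, 0 of the 6 members tested passed edgeR's adjusted threshold by *Neurod6* status, where 0.0555% of all genes tested did (7 genes, and with the mouse as a block 1, or 0.00793%). *Neurod6*, which split the cells, is among the 7 and is the 1 gene called with the block (edgeR adjusted p = 0.00167). At an unadjusted p under 0.05 there were 2 of 6, *Gfra1* and *Bdnf*, where 6.2% of all genes stood, and DESeq2 called 1 of 6, *Gfra1*, where it called 1.01% of all genes. *Gdnf* was not tested, having too few reads. Without mouse 3 the adjusted p of *Gfra1* was 0.0362 (edgeR, log2 fold change 1.75), and without any other single mouse it was 0.0938 to 0.242.

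**Figure D3:**
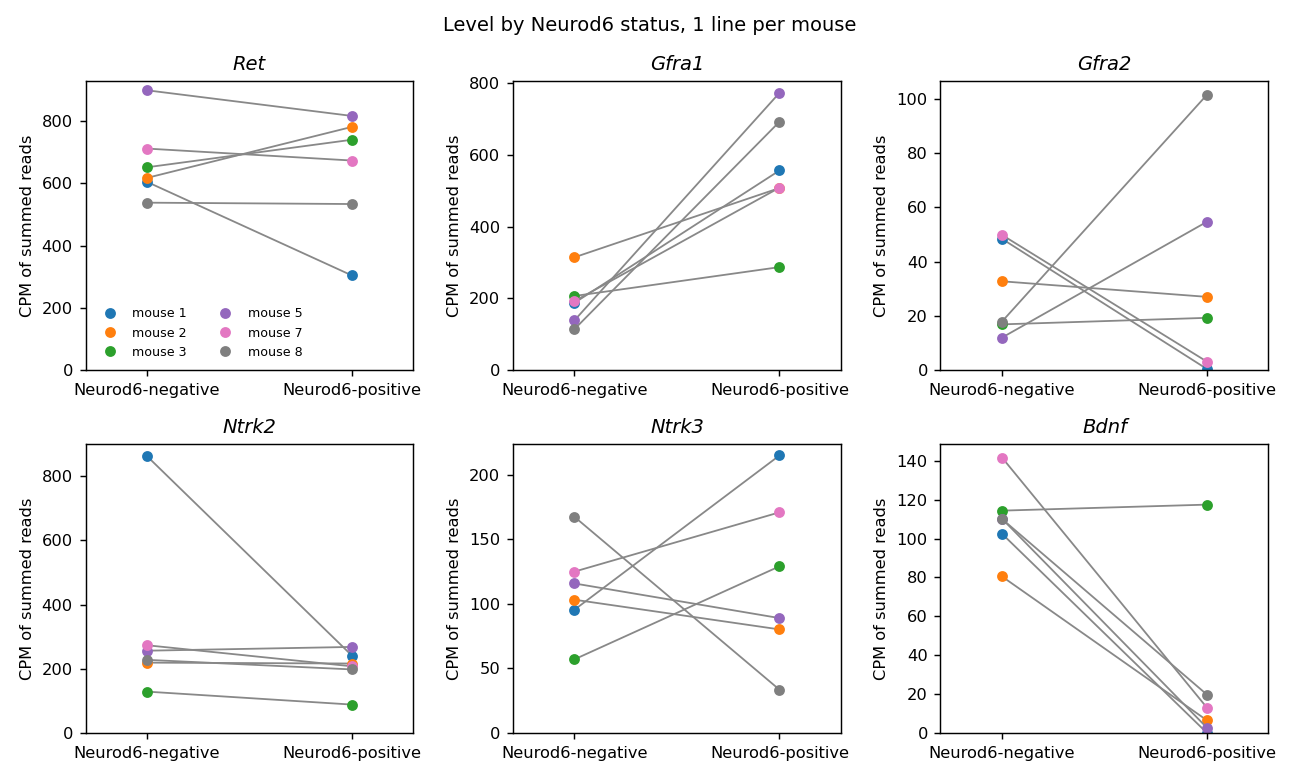
Level of 6 genes, as CPM of the summed reads, in Neurod6-negative and Neurod6-positive cells of the same mouse, 1 line for each of 6 mice. Gfra1 goes up in every mouse, Bdnf goes to under 20 CPM in every mouse but mouse 3, and the high Ntrk2 value of 863 CPM is the negative cells of mouse 1.

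The second class comparison used *Aldh1a7*, an aldehyde dehydrogenase gene beside its close paralog *Aldh1a1* on chromosome 19. *Aldh1a1* marks DA neurons of the ventral substantia nigra and part of the ventral tegmental area. Of 74 *Aldh1a7*-positive cells, 73 also held 10 reads of *Aldh1a1*, as did 165 of all 209 cells and 49 of 49 *Neurod6*-positive cells, with *Aldh1a7* reads a median 6.80% of *Aldh1a1* reads in the same cell. Reads shared by the 2 genes may have been assigned to either or dropped, so *Aldh1a7* status is uncertain as a measure of that gene alone. The fit covered 12782 genes in the 7 mice with 3 or more cells of each kind, which held all 74 positive cells. All 74 were *Th*-rich, whereas 50.0 to 94.1% of the other cells of each mouse were.

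*Bdnf*, *Ntrk3*, and *Gfra2* were each lower in *Aldh1a7*-positive cells in 6 of 7 mice, and none of the 3 passed the test. *Bdnf* stood at 13.9, 23.1, and 114 CPM (lowest, median, and highest of 7 mice) in positive cells and at 75.8, 104, and 156 CPM in the others. Mice 3 and 5 were the ones whose positive cells reached 114 and 111 CPM, and the other 5 mice stood at 31.2 CPM or under. The other cells of mice 3 and 5 stood at 116 and 75.8 CPM, so mouse 3 was near equal and mouse 5 went up. The log2 fold change of *Bdnf* was −1.07 ± 0.46 (SE; edgeR adjusted p = 0.388). Over all cells *Bdnf* was positive in 42 of 74 *Aldh1a7*-positive (56.8%, exact 95% interval 44.7 to 68.2%) and 72 of 135 other cells (53.3%, 44.6 to 62.0%). Mice 3 and 5 held 28 and 16 of these 74 cells, and by mouse the share was lower in positive cells in 5 of 7 mice, those 2 being the exceptions. The 11 stress and activity genes summed to 46.6 to 301 CPM in positive and 172 to 1503 CPM in other cells, lower in positive cells in 7 of 7 mice, and 0 of the 9 tested passed in edgeR (log2 fold changes −3.40 to 0.11, 5 of them under 0.05 unadjusted). The 4 genes of other neurons summed to 1.05 to 466.0 CPM in positive and 63.4 to 1671 CPM in other cells, lower in 7 of 7 mice, and the 6 oligodendrocyte genes to 0 to 50.2 CPM and 34.0 to 5430 CPM, lower in 6 of 7. Of these 2 lists 2 genes each could be tested, 0 passed, and all were under 0.05 unadjusted. The part of the 3 lists in the values of *Bdnf*, *Ntrk3*, and *Gfra2* was not tested. In *Th*-rich cells alone the log2 fold change of *Bdnf* was −1.18, and over 19 alternatives it ran from −1.50 to −0.56, with none passing.

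*Ntrk3* stood at 1.05, 53.2, and 159 CPM in positive cells and at 100, 141, and 239 CPM in the others. The positive cells of mouse 6 held 4 reads of it in all, and those of mouse 7 were the ones above their partner cells. The log2 fold change of *Ntrk3* was −1.03 ± 0.52 (SE, edgeR adjusted p = 0.493). Over 19 alternatives it ran from −1.67 to −0.46, with none passing. *Gfra2* stood at 0.304, 5.59, and 92.8 CPM in positive cells and at 17.8, 31.5, and 46.7 CPM in the others. In 6 mice the positive cells stood at 11.8 CPM or under, and in mouse 8 at 92.8 CPM. Mouse 8 was set apart only after its value was seen. The log2 fold change of *Gfra2* was −0.80 ± 0.87 (SE; edgeR adjusted p = 0.809), and without mouse 8 it was −2.58 (edgeR adjusted p = 0.162). In cells, *Gfra2* was positive in 12 of 74 *Aldh1a7*-positive (16.2%, exact 95% interval 8.67 to 26.6%) and 46 of 135 other cells (34.1%, 26.1 to 42.7%).

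*Ret*, *Gfra1*, and *Ntrk2* had the 3 smallest differences by *Aldh1a7* status in the main fit. *Ret* stood at 566, 646, and 713 CPM in positive and 420, 644, and 1045 CPM in other cells (log2 fold change 0.16 ± 0.17, SE; edgeR adjusted p = 0.796). *Gfra1* stood at 124, 303, and 498 CPM in positive and 90.8, 281, and 412 CPM in other cells (log2 fold change 0.19 ± 0.31, SE, edgeR adjusted p = 0.881). Within mice *Gfra1* was higher in positive cells in only 2 of 7, *Ret* in 4 of 7, and *Ntrk2* in 3 of 7. *Ntrk2* stood at 81.2, 240, and 252 CPM in positive and 116, 232, and 306 CPM in other cells (log2 fold change −0.05 ± 0.25, SE; edgeR adjusted p = 0.976). Approximate 95% intervals were −0.17 to 0.50 for *Ret*, −0.42 to 0.79 for *Gfra1*, and −0.53 to 0.44 for *Ntrk2*. Over 19 alternatives the log2 fold change of *Gfra1* ran from −0.38 to 0.86 and that of *Ntrk2* from −0.77 to 0.25, with none passing. *Ntrk2* was positive in 73 of 74 *Aldh1a7*-positive cells and *Ret* in 73 of 74.

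Of the 6 members tested, 0 passed by *Aldh1a7* status in edgeR, where 0.407% of all genes did (52 genes, and with the mouse as a block 29, or 0.227%), and 0 passed in DESeq2, where 2.64% did. *Aldh1a7*, which split the cells, is counted in each of these shares. *Bdnf* alone had an unadjusted edgeR p under 0.05, where 11% of all genes had one. With the mouse as a block the log2 fold changes were −2.60 for *Gfra2*, −1.30 for *Ntrk3*, and −1.50 for *Bdnf* (edgeR adjusted p = 0.260, 0.434, and 0.207). *Slc6a3* was itself among the genes called higher in the *Aldh1a7*-positive cells (log2 fold change 1.27 ± 0.24, SE; edgeR adjusted p = 0.0334).

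**Figure D4:**
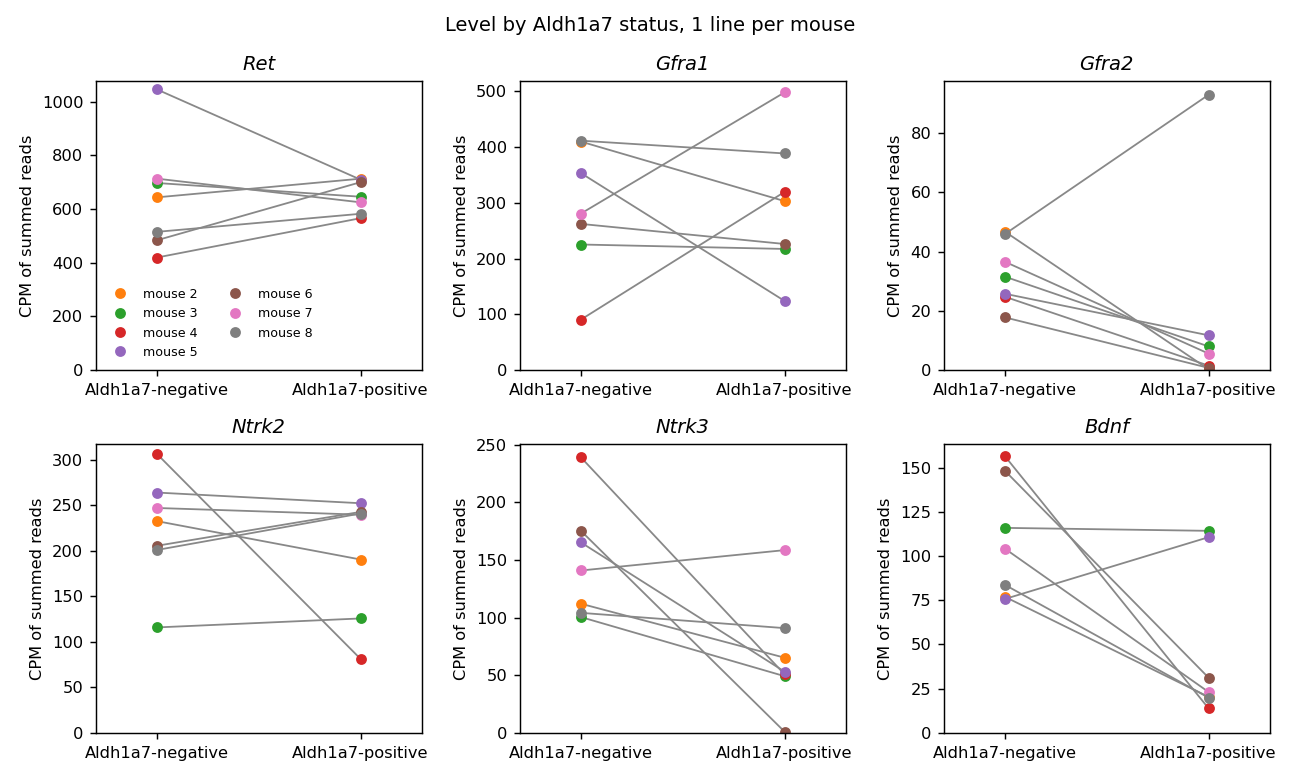
Level of 6 genes, as CPM of the summed reads, in Aldh1a7-negative and Aldh1a7-positive cells of the same mouse, 1 line for each of 7 mice. Gfra2 and Ntrk3 each go down in 6 of 7 mice, mouse 8 being the exception for Gfra2 and mouse 7 for Ntrk3, and the positive cells of mice 3 and 5 alone exceed 100 CPM of Bdnf, mouse 5 going up.

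The balance of the 2 co-receptor genes was taken as log2((*Gfra1* CPM + 1)/(*Gfra2* CPM + 1)) and compared within mice. It was 5.02 ± 2.25 in *Neurod6*-positive and 2.78 ± 0.73 in the other cells (SD, n = 6 mice). *Gfra1* outweighed *Gfra2* more strongly in *Neurod6*-positive cells in 6 of 6 mice, by 0.15 log2 units in mouse 8 and 6.67 in mouse 1, with a median of 0.66. The two-sided exact sign-flip permutation p was 0.03125, the smallest that 6 mice can give, and the adjusted p over the 3 tests of this kind was 0.0938. Mice 1 and 7 stood apart with 6.67 and 5.01, and the other 4 lay under 1. The value of mouse 1 rests on 1 read of *Gfra2* in 3 *Neurod6*-positive cells. The mean difference was 2.24, it was 1.35 without mouse 1, and it ran from 0.99 (with *Neurod6* status from 1 read) to 2.85 over 15 alternatives (exact permutation adjusted p = 0.0938 to 0.703).

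By *Aldh1a7* status the balance was 5.43 ± 2.16 in positive and 3.05 ± 0.66 in other cells (SD, n = 7 mice). It was higher in positive cells in 5 of 7 mice, from −1.08 in mouse 8 to 5.15 in mouse 4 (exact permutation p = 0.0625, adjusted p = 0.0938, two-sided, the smallest p possible being 0.0156). Mice 2, 4, and 6, at 4.76, 5.15, and 3.18, held only 3, 4, and 3 reads of *Gfra2* in their positive cells. The mean difference was 2.39, and over 16 alternatives it ran from 1.60 to 2.96 (exact permutation adjusted p = 0.0938 to 0.456). Neither balance passed after adjustment.

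Male and female mice were compared over sums of all retained cells per mouse, with 15529 genes tested. The females were 25, 33, and 36 d old and the males 24 to 28 d, so the 2 oldest mice were female, and the part of age was not tested. *Xist* (log2 fold change −7.52) and the Y-linked genes *Ddx3y*, *Uty*, *Eif2s3y*, and *Kdm5d* (9.64 to 12.0) were the 5 genes called, in the directions the labelled sexes give. Of the 6 members tested, 0 were called by edgeR, where 0.0322% of all genes were, and 0 by DESeq2, where 1.22% were. At an unadjusted edgeR p under 0.05 there were 2 of 6, *Ret* and *Ntrk2*, where 8.12% of all genes stood.

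*Ret* stood at 535, 667, and 884 CPM (lowest, median, and highest) in 5 males and at 464, 541, and 550 CPM in 3 females (log2 fold change 0.43 ± 0.18, SE; edgeR adjusted p = 0.579). The 2 groups overlapped by the lowest male, mouse 8. *Ntrk2* stood at 122, 218, and 258 CPM in males and 215, 237, and 751 CPM in females (log2 fold change −0.89 ± 0.38, SE; edgeR adjusted p = 0.592), the highest being mouse 1, without which the log2 fold change of *Ntrk2* was −0.11 (edgeR adjusted p = 0.953). In *Th*-rich cells alone the log2 fold changes were −0.03 for *Ret* and 0.01 for *Ntrk2*. The other 4 members had log2 fold changes of −0.44 to 0.52. That of *Gfra2*, 0.45, was 1.48 in *Th*-rich cells (edgeR adjusted p = 0.553), 0.089 without mouse 8, and 1.02 without mouse 1. On the machine that ran both sexes the change of *Ret* was 0.41, and in the cells of the 2 sequencing lanes it was 0.47 and 0.43, with none of these passing. *Ntrk2* differed between lanes, at −1.58 in the first and 0.20 in the second.

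**Figure D5:**
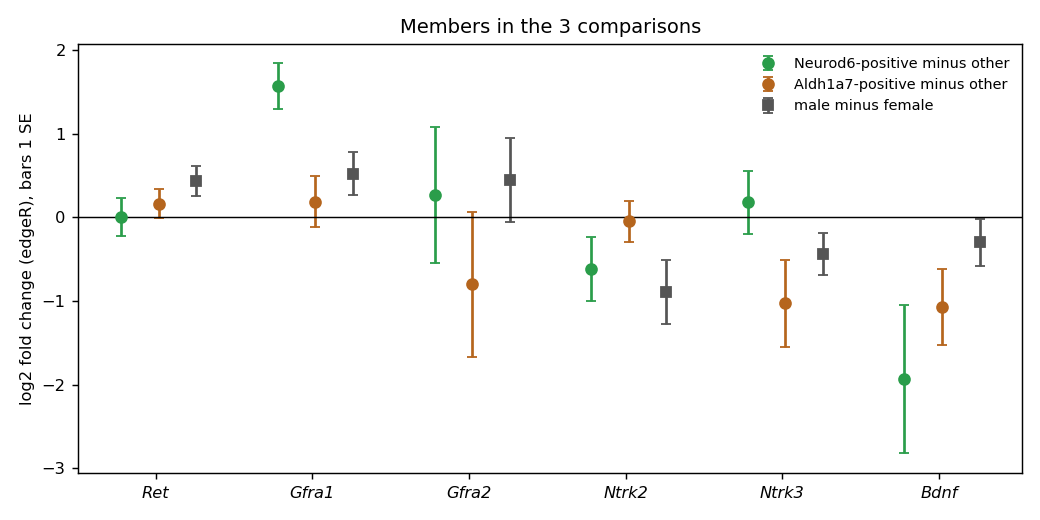
Log2 fold change of 6 genes from edgeR in Neurod6-positive against other cells (6 mice), Aldh1a7-positive against other cells (7 mice), and male against female mice (8 mice), with bars of 1 SE. Gfra1 at 1.57 and Bdnf at −1.94 in the Neurod6 comparison lie farthest from 0, and the bar of Bdnf in that comparison is the widest, at 0.88.

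The same comparisons were read for 75 other genes of these pathways, all found in the table, 1 of them under an older symbol. Of the further receptors, *Gfra4*, the co-receptor of persephin, was positive in 96 cells (45.9%) at 30.9 ± 11.2 CPM (SD, n = 8 mice), whereas *Gfra3* was positive in 1 cell and *Gfral* in 0. *Ngfr*, the p75 neurotrophin receptor gene, was positive in 8 cells (3.83%). *Ncam1*, which can serve GDNF without RET, was positive in 208 cells and *Kidins220*, a scaffold downstream of Trk receptors, in 206. *Sdc3* was listed at 0. The sorting receptor genes *Sort1* and *Sorcs3* were positive in 141 and 84 cells. *Nr4a2*, a transcription factor gene known for its part in *Ret* expression, was positive in 197 cells.

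Of 56 pathway genes tested by *Neurod6* status 0 were called in either direction by edgeR or DESeq2, where 0.0555% and 1.01% of all genes were, and their median log2 fold change was 0.09 against 0.00 over all genes. At an unadjusted edgeR p under 0.05, where 6.2% of all genes stood, there was 1, *Sorcs1*, a sorting receptor gene of the sortilin family, at −3.86 ± 1.28 (SE; edgeR adjusted p = 0.537). By *Aldh1a7* status 0 of 56 were called by edgeR (0.407% of all genes), with a median of 0.06 against 0.00 over all genes, and 2 were under 0.05 unadjusted (11% of all genes). These were the adaptor gene *Shc2* (−1.70 ± 0.71, SE; edgeR adjusted p = 0.377) and *Dusp6*, a phosphatase induced by and acting on ERK (−4.21 ± 1.26, SE; edgeR adjusted p = 0.179). DESeq2 called 1 of 56, *Dusp6* (2.64% of all genes). *Nr4a2* was at 0.18 ± 0.19 (SE; edgeR adjusted p = 0.804). Between the sexes 0 of 63 were called by edgeR (0.0322% of all genes), 5 were under 0.05 unadjusted (8.12% of all genes), and DESeq2, which called 1.22% of all genes, called 1, again *Dusp6* (−2.89 ± 0.45, SE; edgeR adjusted p = 0.163). The stress and activity genes summed to 147 to 1076 CPM in males and 416 to 3372 CPM in females, with 0 of 9 called by edgeR and 4 under 0.05 unadjusted (median log2 fold change −1.58). The oligodendrocyte genes summed to 19.4 to 2148 CPM in males and 39.4 to 59.3 CPM in females, with 0 of 4 called by edgeR and 3 under 0.05 unadjusted. The part of both lists in the values by sex was not tested.

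The genes most like each member over cells were found by Pearson's r of log2(CPM + 1) across 209 cells, after removal of each mouse's mean, among 8553 genes with 10 reads in at least 20% of cells. *Ret* was most like *Chrna4*, a nicotinic receptor subunit gene (r = 0.70), then *Fgf13* (0.68) and *Nr4a2* (0.67). *Gfra1* was most like *Ntsr1*, a neurotensin receptor gene (0.56), then *Slc10a4* (0.55) and *Ebf3* (0.51). *Bdnf* was most like *Ntf3* (0.44), then *Rph3a* and *Pcsk2* (0.38 and 0.37). *Gfra2* was most like *Kcnab1*, *Nrp2*, and *Pcdh19* (0.41, 0.40, and 0.39). *Ntrk3* was most like *Slc7a14*, *Gabrq*, and *Foxp2* (0.36, 0.35, and 0.32). *Ntrk2* was most like *Crebbp*, *Syt11*, and *LOC102638713* (0.36, 0.35, and 0.34). Among the members themselves the highest value was 0.39, between *Ret* and *Gfra1*, and *Ret* with *Bdnf* followed at 0.26. *Ret* and *Gfra1* each went at least as closely with the DA markers *Slc6a3* (0.58 and 0.40) and *Th* (0.41 and 0.44), over cells that were *Th*-rich or not. The points of each r share libraries and a varying depth, so these values are descriptive.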

How the data were processed

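The authors sorted tdTomato-positive, propidium iodide-negative cells, captured them on Fluidigm C1 chips, discarded doublets seen in the wells, and made SMARTer and Nextera libraries without molecular identifiers. Per the methods and processing notes, trimming used Trimmomatic 0.3.2, alignment to GRCm38.3 used TopHat2 2.1.1, and the authors deposited raw counts per RefSeq gene from featureCounts 1.5.0-p3, without chimeric fragments or reads that fell on several genes. Of 47082 entries, 5721 held no value. A deposited table of the authors gives a ratio of 5′ to 3′ coverage for 367 unnamed cells (median 0.338), used only as a description.

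Here, spike-in and transgene entries (5.2e-06% and 0.00324% of reads) were removed, cells with 500000 reads were kept, and no 2 kept cells were identical. Reads were summed per mouse and class (3 or more cells each; positive from 10 reads) and fitted with edgeR 4.0.16 (filterByExpr, TMM, quasi-likelihood test, SE as the change divided by the root of F). P-values were Benjamini-Hochberg adjusted over all genes. DESeq2 1.42.0 was an alternative. The scripts were checked on simulated counts. Lengths were merged exons in GENCODE vM21 (GRCm38), and positions RefSeq's for GRCm38.p6; patches keep chromosome coordinates. Mice are the replicates. The 2 sums of a mouse share an animal, and the main fit treats them as independent. Their deviations from class means correlated at 0.045 to 0.275 within a mouse. A positive sum correlated best with the other sum of its own mouse in every case but mouse 7 by *Aldh1a7* status. The mouse as a block was an alternative. Named genes were the 7 members, the genes that define the classes, markers, pathway genes past the threshold or needed for their role, and for each member the 3 genes of highest correlation. Pathway genes named for an unadjusted p under 0.05, and the 5 genes called between the sexes, were chosen after their values were seen. Members, lists, and thresholds were chosen with earlier results of these data known.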

Additional observations from a re-analysis of the deposited data

Results flagged for a closer look

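In 40 groups of 5 to 8 mice, 5 held a mouse whose gap to the next exceeded Dixon's 95% critical value, where chance flags about 1 group in 20. *Gfra2* in the *Aldh1a7*-positive cells of mouse 8 stood at 92.8 CPM, with the next mouse at 11.8 CPM. Of its 6 cells 3 were positive for *Gfra2*, and 1 cell carried 69.1% of the reads, without which the level was 35.9 CPM. *Bdnf* in the *Neurod6*-positive cells of mouse 3 stood at 118 CPM against 19.7 CPM in the next mouse. There 7 of 8 cells were positive for *Bdnf*, and without the highest cell the level was 82.0 CPM. Mouse 3 was also the mouse with the lowest summed level of stress and activity genes, 147 CPM, and the part of that in the value was not tested. *Ntrk2* in mouse 1 stood at 751 CPM over all its cells and at 863 CPM in its *Neurod6*-negative cells, the next mice being at 258 and 273 CPM. Without the 3 cells with astrocyte markers described above the level over all its cells was 327 CPM, and their part in the value of 863 CPM was not tested. *Gdnf* in mouse 1 stood at 0.627 CPM with all other mice at 0, and rests on 8 reads in 1 cell.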

How the results depend on the processing

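The number of genes called moved with most settings, and no member passed the threshold in edgeR except *Gfra1* by *Neurod6* status. By *Neurod6* status, where 7 genes were called, DESeq2 called 127 genes, RLE size factors 4, no filter beyond 1 read 3, a 50-read definition 3, thinning of cells to 500000 reads 1, cells of 100000 reads 12, *Th*-rich cells 4, and 5 cells per class 3. Leaving out 1 mouse gave 1 to 18 calls, 18 of them without mouse 3. By *Aldh1a7* status, where 52 genes were called, DESeq2 called 338, a 1-read definition 14, cells of 100000 reads 129, cells of 750000 reads 11, *Th*-rich cells 17, and 5 cells per class 15. Leaving out 1 mouse gave 14 to 87, 87 of them without mouse 3. Without normalization factors 10 were higher and 39 lower, against 18 and 34, as the median of all genes moved to −0.15. Between the sexes DESeq2 called 190, the machine with both sexes 0, lane 1 0, lane 2 1, cells of 750000 reads 3, and 4 to 5 when 1 mouse was left out. The causes were not tested.

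With the mouse as a block, the 1 gene called by *Neurod6* status was *Neurod6* itself. By *Aldh1a7* status 29 genes were called, *Aldh1a7* among them (19 higher and 10 lower). *Ret* (−0.053) and *Gfra2* (−0.39) turned by *Neurod6* status. The block changed no call of a member, none having been called in the main fit. It moved *Gfra1* by *Neurod6* status from an edgeR adjusted p of 0.0638 to 0.198. *Gfra1* by *Neurod6* status passed with cells of 100000 reads (1.62, adjusted p = 0.0384), in DESeq2, and without mouse 3.

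Small differences turned in sign. By *Neurod6* status *Ret* was at −0.069 without normalization factors, −0.040 without the filter, −0.0054 with 50 reads, −0.0098 with cells of 750000 reads, and −0.26 in *Th*-rich cells, and *Ntrk3* at −0.18 with cells of 750000 reads and −0.10 with 5 cells per class. By *Aldh1a7* status *Ret* was at −0.13 in *Th*-rich cells and −0.018 with 5 cells per class. *Gfra1* was at −0.38 with 50 reads, −0.042 in thinned cells, −0.15 in *Th*-rich cells, and −0.0068 with 5 cells per class, and *Ntrk2* at 0.25 with cells of 750000 reads, 0.10 in *Th*-rich cells, and 0.11 with 5 cells per class. At the other end of the alternatives *Gfra1* reached 0.86 and *Ntrk2* −0.77. Between the sexes *Th*-rich cells gave −0.032 for *Ret*, −0.0097 for *Gfra1*, and 0.0068 for *Ntrk2*, and lane 2 gave 0.20 for *Ntrk2* and 0.10 for *Ntrk3*. Leaving out 1 mouse gave −0.069 to 0.12 for *Ret*, −0.54 to 0.73 for *Gfra2*, and −0.10 to 0.53 for *Ntrk3* by *Neurod6* status, and −0.16 to 0.19 for *Ntrk2* by *Aldh1a7* status.

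The share of *Gfra2*-positive cells by *Ret* status, −16.7 points in 1 mouse, was 0 in thinned cells and 7.32 with cells of 100000 reads (5 mice, exact permutation adjusted p = 0.469), where that of *Gfra1* was 53.5 (adjusted p = 0.104). Over 5 alternatives the share of *Gfra2* ran from −42.9 to 7.32 points. By *Gfra1* status it was 6.65 points with a 1-read definition. In the order of levels, 5 of 6 pairs passed, and 3 to 4 when 1 mouse was left out. *Bdnf* less *Ntrk2* was −0.44 with the longest transcript, −0.040 to 0.40 when 1 mouse was left out, and 0.48 in *Th*-rich cells, where it passed (exact permutation adjusted p = 0.0469).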

Other observations

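The 2 class genes crossed, and the 4 kinds of cell they make were described by the mean over mice with 3 or more such cells, with no test. Numbers of cells and shares of positive cells cover all mice, also those with too few cells to enter a mean. *Gfra1* stood at 455 ± 184 CPM in cells with both *Neurod6* and *Aldh1a7* (18 cells, SD, n = 4 mice) and at 605 ± 180 CPM in cells with *Neurod6* alone (31 cells, n = 6 mice). It stood at 180 ± 95.9 CPM in cells with *Aldh1a7* alone (56 cells, n = 6 mice) and at 197 ± 79.4 CPM in cells with neither (104 cells, n = 8 mice). Both kinds with *Neurod6* were thus above both kinds without it, and *Gfra1* was positive in 100% of both kinds of *Neurod6* cell against 69.6% and 63.5% of the other kinds.

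*Bdnf* was lowest of the 4 kinds where both class genes were found. It stood at 13.6 ± 23.7 CPM with both, 40.8 ± 67.9 CPM with *Neurod6* alone, 62.7 ± 47.0 CPM with *Aldh1a7* alone, and 123 ± 28.1 CPM with neither, and was positive in 16.7%, 38.7%, 69.6%, and 57.7% of cells. *Ntrk3* was lowest in cells with *Aldh1a7* alone, at 53.4 ± 53.5 CPM and 51.8% of cells, against 154 ± 53.1 CPM and 75.0% in cells with neither. *Ret* stayed between 625 and 703.4 CPM in all 4 kinds. *Th* differed between them as well, at 9812 CPM with both and 4677 CPM with neither.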
